A study of Apostichopus japonicus with 9 samples.

Results

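The genes described here are those that the annotation of the deposited table assigns to the Lysosome pathway of KEGG and that had a value above 0 in at least 2 of 9 libraries. They numbered 104 of 53665 genes in the table, out of 106 that carried the pathway. The remaining 2 were both described as tartrate-resistant acid phosphatase type 5-like, and each was above 0 in 1 library only, AJAP24875 at 0.0506 FPKM in T_3h_2 and AJAP06946 at 0.0278 FPKM in T_3h_3. Just inside the rule stood AJAP25017, a gene of the same description that was above 0 in 3 libraries. By their KEGG entries the genes were sorted into proteases, most of them cathepsins (16 genes), glycosidases (12), sulfatases (33), lipid enzymes (6), membrane proteins (7), subunits of the V-type ATPase (11), sorting and adaptor proteins (17) and other enzymes (2). The class and name of each gene rest on that entry, and some descriptions differ from it. For 12 of the genes the description was absent or gave no known protein.

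RNA was taken from the body wall (AJBW) of *Apostichopus japonicus*, a sea cucumber used as food, and this tissue softens when it is warmed, which is called tenderization. The body wall was fresh (CON) or had been kept at 37 °C for 1 h (T_1h) or 3 h (T_3h), with 3 libraries per group. The tissue came from animals bought alive, with a body weight of 150 ± 20 g, and was freed of the internal organs and the head and divided before it was warmed, so the warmed tissue was no longer part of a living animal. No genotype and no age are given for any group. Whole body wall holds dermis, muscle, nerve and coelomocytes, the immune cells of the animal, so fewer cells of a type and less RNA per cell cannot be told apart.

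Lysosomes are acidic vesicles in which a cell breaks down proteins, sugar chains and lipids that arrive from outside by endocytosis or from inside by autophagy. A proton pump, the V-type ATPase, keeps the lumen acidic, and most of the enzymes work best at that acidity. Many of the enzymes are tagged with mannose 6-phosphate in the Golgi, bound by receptors there and carried in clathrin-coated vesicles with the help of adaptor complexes. Cathepsins are the main lysosomal proteases, and they can also cut proteins of the extracellular matrix once they are outside the lysosome.

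Expression is given as FPKM, the fragments of a gene per kilobase of its transcript, scaled to the mapped fragments of the library, so levels can be compared between genes. The paper gives read totals per library, but no read counts per gene were at hand. The precision of a value was therefore judged only from the spread between libraries. The libraries summed to between 336123 and 388082 FPKM, their median over detected genes ran from 0.501 FPKM in T_3h_2 to 1.25 FPKM in CON_3, and their 10 highest genes held from 13.5% of all FPKM in CON_3 to 36.4% in T_3h_2. Differences were tested on log2(FPKM + 1) with limma over 8 libraries, without T_1h_1, which the study also set aside. The thresholds, taken from the study's methods, were an unadjusted p of 0.05 or less together with a log2 fold change of 1 or more in either direction. Single genes are given with a p adjusted over all tested genes (Benjamini-Hochberg), and none of these was under 0.05 in the fit of 8 libraries. Since a few very high genes can lower the FPKM of all others in a library, the limma fit was also computed after median-ratio scaling. This scaling sets the typical gene to the same level in every library. Sums and shares of FPKM, counts of groups that do not overlap, comparisons within replicate numbers and shares of variation were computed without it. With that scaling the T_3h median over all 50973 tested genes moved from -0.17 to -0.02 on the log2 scale.

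The lysosome genes together held a smaller share of all FPKM after warming, and proteases made up most of that share in every library. In CON the genes held 0.624%, 0.603% and 0.532% of all FPKM, in T_1h 0.354%, 0.448% and 0.458%, and in T_3h 0.253%, 0.183% and 0.393%. Neither warmed group overlapped CON, while T_1h and T_3h overlapped each other. Summed FPKM averaged 2049.5 ± 161 in CON, 1503 ± 112 in T_1h and 952 ± 377 in T_3h (SD, n = 3 each). The number of these genes at 1 FPKM or more was 82, 84 and 83 in the CON libraries, 78, 76 and 79 in T_1h, and 66, 59 and 75 in T_3h. The 2 highest cathepsin L genes carried much of the total, and without them the mean sum was 1132.2 FPKM in CON, 835 in T_1h and 582 in T_3h. By class, the mean sum at T_3h was 39.4% of CON for proteases, 45.6% for glycosidases, 48.3% for lipid enzymes, 55.8% for sorting and adaptor proteins, 57.7% for the V-type ATPase, 60.4% for sulfatases and 77.8% for membrane proteins. At T_1h the same means lay between 69.8% of CON for proteases and 79.0% for sulfatases, except for membrane proteins at 102% and other enzymes at 91.5%. T_3h_2 was the lowest library in this sum and also the library with the largest share in its 10 highest genes. T_3h_1 was next lowest in the sum. These libraries also had the fewest genes above 0, with 38194 in T_3h_2 and 39736 in T_3h_1. CON had 40457 to 43948 such genes and T_3h_3 had 43285. In the paper's alignment summary T_3h_1 and T_3h_2 had the largest shares of multimapped reads, those that map to several places. The part of these traits in the result was not tested.

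**Figure D1:**
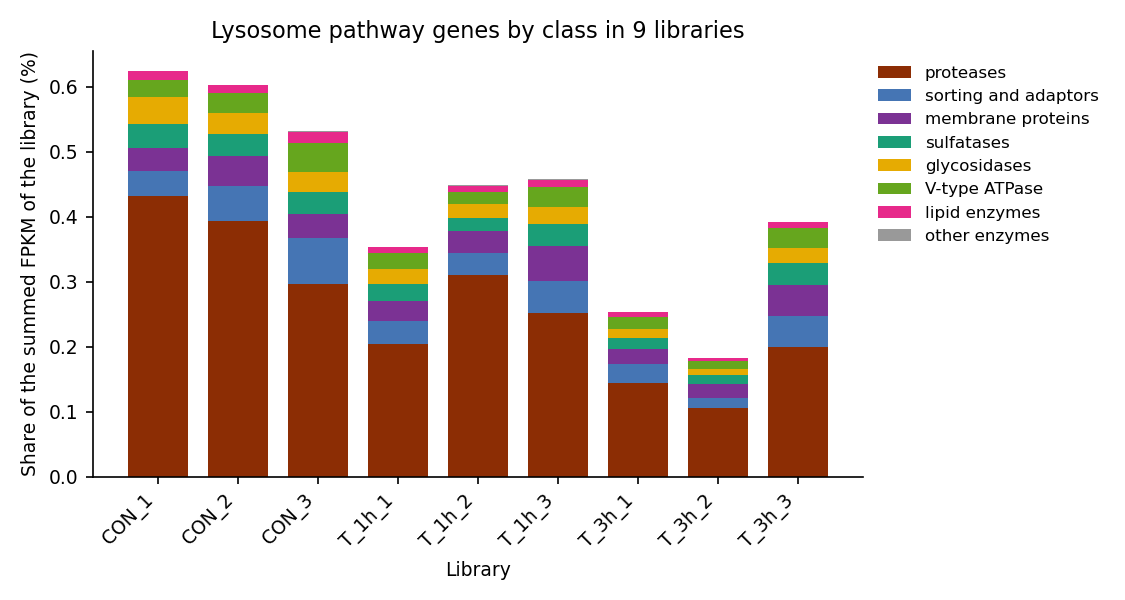
Stacked bars give the share of the summed FPKM of each of 9 libraries, in percent, that lysosome pathway genes held, with 1 colour per class. The 3 CON bars reach 0.532% to 0.624% and the 3 T_3h bars 0.183% to 0.393%, and proteases form at least 50.9% of each bar.

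Gene by gene, 20 of the 104 passed the thresholds as lower at T_3h and 0 as higher. Over all tested genes, 3.67% passed as lower and 0.473% as higher, against 19.2% lower here. The log2 fold change was below 0 for 93 of the 104, with a median of -0.60 against -0.17 over all tested genes. Lysosome genes were expressed above the typical gene, and among genes with a mean of at least 1 FPKM the count was 20 of 81 lower, beside 8.65% of all such genes, and the median -0.80 against -0.40. After median-ratio scaling 6 passed as lower and 0 as higher, beside 1.68% and 1.12% of all genes, and the median was -0.33 against -0.02. With scaling and a mean of at least 1 FPKM, 6 of 81 passed as lower, or 7.41%, beside 4.04% of all such genes. The median was then -0.42 against -0.07. At T_1h 2 genes passed as lower and 0 as higher, beside 0.473% and 0.398% of all genes, and the median was -0.26 against -0.06. After scaling 0 passed at T_1h in limma, with 2 at an unadjusted p under 0.05, beside 0.218% of all genes as lower and 0.585% as higher, and the median was -0.14. In T_3h vs. T_1h 0 genes passed in limma, beside 0.645% of all genes lower and 0.0824% higher. In that comparison 1 gene was at an unadjusted p under 0.05, and a Ballgown-type test, in which the variance of each gene is its own, passed 1 gene as higher, the cation-dependent mannose-6-phosphate receptor MSTRG.29448, beside 0.155% of all genes. None of the 104 reached a Benjamini-Hochberg adjusted p under 0.05 in limma, where the smallest at T_3h was 0.626, and over all genes none did either. In the same fit 24 of the 104 were at an unadjusted p under 0.05 at T_3h, and the Ballgown-type test passed 4 as lower and 1 as higher, beside 0.84% and 0.712% of all genes. The 4 were cathepsin F MSTRG.38763, legumain MSTRG.33320 and the arylsulfatases MSTRG.12493 and MSTRG.28743.

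Over all 9 libraries, 34 of the 104 genes had 3 T_3h values that were all below the 3 CON values, which is 32.7%, beside 9.0% of all genes. Among genes with a mean of at least 1 FPKM over the 9 libraries the count was 29 of 79, or 36.7%, beside 13.6%. In the other direction 1 gene of the 104 and 0 of the 79 had T_3h values all above CON, beside 1.68% and 1.85% of all genes. It was the low N-acetylglucosamine-6-sulfatase type gene AJAP13095, described as an endosulfatase and at no more than 0.307 FPKM in any library. Of the 20 genes that passed at T_3h, 17 had groups that did not overlap and 20 were lower in T_3h than in CON for all 3 replicate numbers. That last pattern held for 63 of the 104, or 60.6%, beside 26.4% of all genes, and for 53 of the 79 at the higher level, or 67.1%, beside 40.4%. At T_1h 12 genes had all 3 values below CON, or 11.5%, beside 3.5% of all genes, or 10 of the 79, beside 5.21%. All above CON at T_1h were 2 of the 104 and 0 of the 79, beside 1.5% and 1.03%, both sulfatases, MSTRG.4264 and AJAP13095. The 2 genes that passed at T_1h also passed at T_3h.

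**Figure D2:**
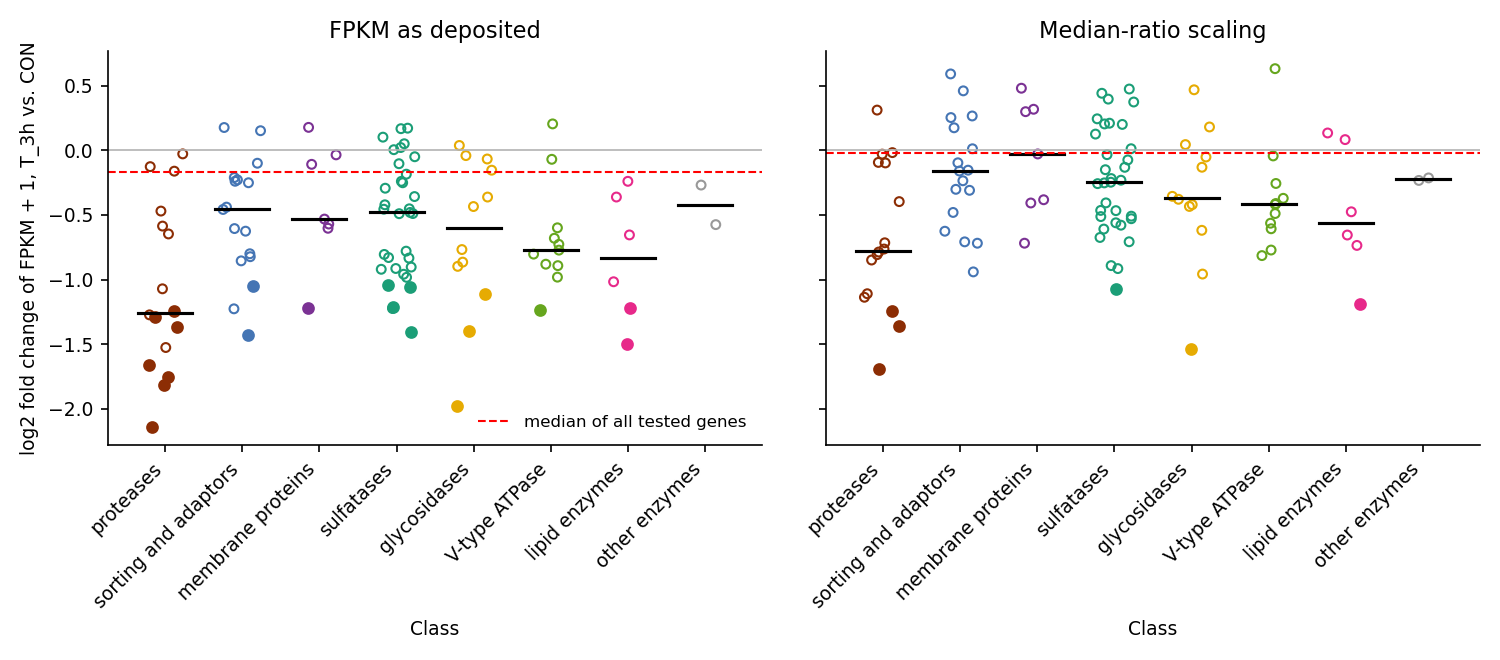
Each point is the log2 fold change of FPKM + 1 in T_3h vs. CON of 1 lysosome pathway gene, by class, with FPKM as deposited on the left and after median-ratio scaling on the right. Filled points passed the thresholds (20 on the left, 6 on the right), black bars are class medians, and the dashed line is the median of all tested genes, at -0.17 and -0.02.

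Proteases had the lowest median log2 fold change of the classes at T_3h. The 1 added to each FPKM shrinks changes of low genes, and 8 of the 16 proteases had a mean of at least 10 FPKM. As a ratio of mean FPKM, the median gene at T_3h was at 36.4% of CON for proteases, 38.7% for the V-type ATPase and 28.0% for other enzymes. The remaining classes ran from 44.0% for lipid enzymes to 69.6% for membrane proteins. At T_3h 7 of 16 passed as lower and 16 of 16 had a log2 fold change below 0, with a median of -1.26, or -0.78 after scaling, when 3 of 16 passed. At T_1h 1 of 16 passed and the median was -0.41. The genes that passed at T_3h covered each catalytic type of the class, namely cysteine proteases, an aspartic protease and a serine carboxypeptidase.

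Cathepsin L, a cysteine protease with broad specificity, was the most abundant product of the pathway in this tissue. MSTRG.29892 had 597, 391 and 443 FPKM in CON, 342, 475 and 369 in T_1h, and 244, 52 and 254 in T_3h. CON and T_3h did not overlap, T_3h_2 was far below the other T_3h libraries, and T_1h_2 lay above CON_2 and CON_3. Its log2 fold change at T_3h was -1.66 (SE 0.61, adjusted p = 0.761), and -0.17 (SE 0.68) at T_1h. The second gene, MSTRG.7356, had 376, 621 and 323 FPKM in CON, 180.2, 363 and 274 in T_1h, and 97.2, 207 and 254 in T_3h. All 3 T_3h values lay below CON here too, and the lowest was T_3h_1. Its log2 fold change at T_3h was -1.29 (SE 0.46, adjusted p = 0.748), and the mean of T_3h was 42.3% of that of CON. After median-ratio scaling neither passed, at -1.14 (SE 0.54, adjusted p = 0.984) for MSTRG.29892 and -0.76 (SE 0.53, adjusted p = 1.0) for MSTRG.7356. Both carry the same cathepsin L description, as do MSTRG.29893 and MSTRG.7358, and reads could be split between such copies, so the level of each single gene is uncertain.

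Of the less abundant cathepsin L genes, MSTRG.20019 had 13.5, 12.4 and 9.94 FPKM in CON, 10.2, 8.13 and 7.67 in T_1h, and 4.53, 2.72 and 6.74 in T_3h. Its T_3h values were all below its T_1h values, and these overlapped CON at 1 library. The log2 fold change at T_3h was -1.25 (SE 0.38, adjusted p = 0.698) and -0.81 (SE 0.33, adjusted p = 0.95) after scaling. MSTRG.37729, described as a cathepsin L2 cysteine protease, had 8.05, 12.3 and 2.18 FPKM in CON, 2.96, 5.44 and 0.614 in T_1h, and 2.94, 2.28 and 0.244 in T_3h. It fell within each replicate number while the numbers themselves lay far apart, so CON_3 was below the T_3h libraries 1 and 2. Without a block it did not pass, at -1.53 (SE 0.75, adjusted p = 0.822), and with the replicate number as a block it did, with the same value and an SE of 0.29 (adjusted p = 0.193). MSTRG.29893 likewise passed only with the block (adjusted p = 0.246, and 0.821 without it), at a log2 fold change of -1.07 and a CON mean of 3.58 ± 2.94 FPKM. MSTRG.7358 did not pass in either fit, at -0.65 (SE 0.54, adjusted p = 0.891) without the block.

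Cathepsin F, another cysteine protease, fell most of all the lysosome genes in proportion to its SE. MSTRG.38763 is described only as an uncharacterized protein, and its name here comes from its KEGG entry. It had 27.8, 26.1 and 20.1 FPKM in CON, 12.5, 9.15 and 12.6 in T_1h, and 6.01, 2.5 and 6.8 in T_3h. The 3 groups were fully apart from each other, with every T_1h value below CON and every T_3h value below T_1h. Its mean was 46.4% of CON at T_1h and 20.7% at T_3h. Its log2 fold change was -1.11 (SE 0.46, adjusted p = 1.0) at T_1h and -2.14 (SE 0.41, adjusted p = 0.626) at T_3h. After median-ratio scaling it still passed at T_3h, at -1.69 (SE 0.36, adjusted p = 0.665), and not at T_1h, at -0.93 (SE 0.40). With the replicate block on 8 libraries the value at T_1h was -0.998 (SE 0.41), just short of the fold limit, so that 1 lysosome gene and not 2 passed as lower at T_1h in that fit, beside 1.09% of all genes.

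Legumain, an asparaginyl endopeptidase that also activates some cathepsins by cutting their precursors, was the third most abundant protease. MSTRG.33320 had 188, 158 and 79.2 FPKM in CON, 107, 95.2 and 67.5 in T_1h, and 56.8, 47.3 and 49.3 in T_3h. The T_3h values lay close together and below all others, while CON_3 stood well below the other CON libraries and within the range of T_1h. The log2 fold change at T_3h was -1.37 (SE 0.41, adjusted p = 0.686), and -0.85 (SE 0.52, adjusted p = 1.0) after scaling, so that it did not pass there.

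Among the aspartic proteases, MSTRG.32391, described as cathepsin D, had 132, 105 and 65.6 FPKM in CON, 57.6, 57.3 and 56.5 in T_1h, and 24.8, 19.2 and 46 in T_3h. T_1h was nearly the same in its 3 libraries and below all of CON, and T_3h was below all of T_1h. Its log2 fold change was -1.75 (SE 0.43, adjusted p = 0.646) at T_3h and -1.24 (SE 0.44, adjusted p = 0.90) after scaling, and it passed in both. Of the 3 genes described as lysosomal aspartic protease-like 0 passed at T_3h, and AJAP30079 was at no more than 0.124 FPKM in any library. MSTRG.32506 had 31.9, 18.4 and 18.1 FPKM in CON, 23.9, 19.4 and 17.8 in T_1h, and 12.1, 12.6 and 19.2 in T_3h. Its T_3h_3 value lay above 2 of the CON values, and the log2 fold change at T_3h was -0.59 (SE 0.38, adjusted p = 0.876). MSTRG.25584 ran from 3.47 to 8.79 FPKM over the libraries, with overlapping groups and -0.47 (SE 0.37, adjusted p = 0.883) at T_3h. Whether these genes differ in their response from MSTRG.32391 was not tested.

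Cathepsin A, a serine carboxypeptidase that also protects sialidase and beta-galactosidase in mammals, is named lysosomal protective protein in the table. MSTRG.20982 had 38.2, 21.8 and 20.0 FPKM in CON, 18.4, 8.66 and 17.6 in T_1h, and 6.55, 2.99 and 13.4 in T_3h. All warmed values lay below CON. The log2 fold change was -1.81 (SE 0.55, adjusted p = 0.698) at T_3h and -1.36 (SE 0.50, adjusted p = 0.92) after scaling, and the mean at T_3h was 28.7% of CON. For MSTRG.7502, whose KEGG entry is cathepsin X, a carboxypeptidase, and whose description is a cathepsin B-like protease, the values were 26, 34.8 and 38.7 FPKM in CON, 16.4, 17.2 and 34.8 in T_1h, and 10.6, 6.03 and 32.3 in T_3h. Replicate 3 stayed high throughout and the groups overlapped. It did not pass without a block, at -1.27 (SE 0.59, adjusted p = 0.816), and passed with it, with the same value and an SE of 0.41 (adjusted p = 0.284).

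Cathepsin B did not move one way in all replicates. MSTRG.28063, which has no informative description and is cathepsin B by its KEGG entry, had 4.19, 6.73 and 9.8 FPKM in CON, 10.1, 4.78 and 7.52 in T_1h, and 15.6, 2.28 and 5.11 in T_3h. Replicate 1 went up with time while replicates 2 and 3 went down, and the log2 fold change at T_3h was -0.13 (SE 0.61, adjusted p = 0.991), or 0.31 (SE 0.52) after scaling.

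**Figure D3:**
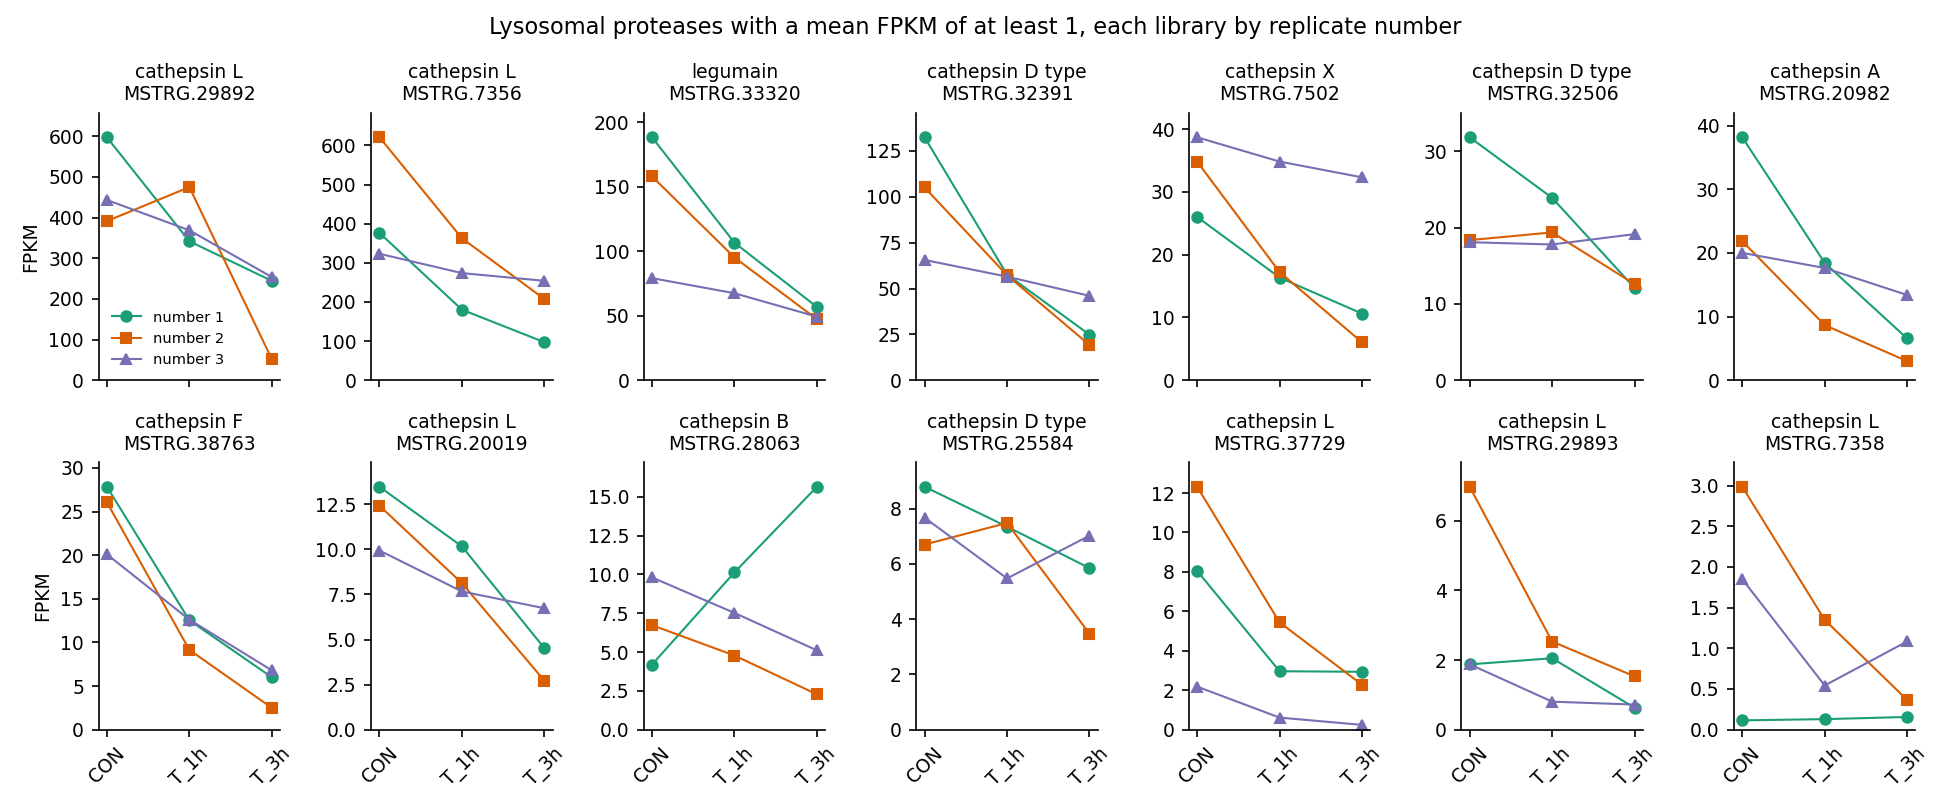
Each panel plots the FPKM of 1 lysosomal protease with a mean of at least 1 FPKM in the 3 groups, with a line joining the libraries of each replicate number. Lines for cathepsin F (MSTRG.38763) run from 20.1 to 27.8 FPKM in CON down to 2.5 to 6.80 FPKM in T_3h, while those for cathepsin B (MSTRG.28063) cross.

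Glycosidases, which trim sugars from glycoproteins and glycolipids, gave 3 genes of 12 that passed as lower at T_3h, with a class median of -0.60, or -0.37 after scaling. Sialidase-1, which removes sialic acid, was the gene with the largest fall. MSTRG.34620 had 27.3, 24 and 18.4 FPKM in CON, 18.8, 10.3 and 14.8 in T_1h, and 5.18, 2.18 and 10.4 in T_3h. Every T_3h value lay below every CON value, with T_1h mostly between them. Its log2 fold change was -1.98 (SE 0.50, adjusted p = 0.649) at T_3h and -1.54 (SE 0.42, adjusted p = 0.757) after scaling, and the mean at T_3h was 25.5% of CON. The pathway list holds 3 sialidase-1 genes, and the other two did not pass. MSTRG.15703 had 5.25, 3.4 and 23.4 FPKM in CON, 4.16, 2.1 and 15 in T_1h, and 2.73, 1.28 and 14.9 in T_3h. MSTRG.32410 had 16.6, 0.89 and 2.86 FPKM in CON, 6.69, 0.607 and 2.55 in T_1h, and 7.68, 0.952 and 2.57 in T_3h. In each of these, 1 replicate number was far above the others in all 3 groups, number 3 in MSTRG.15703 and number 1 in MSTRG.32410. Both were chosen with their values already known.

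Alpha-N-acetylgalactosaminidase, which removes N-acetylgalactosamine, was the highest glycosidase. MSTRG.12660 had 42.1, 32.1 and 20.5 FPKM in CON, 25.7, 19.6 and 17.8 in T_1h, and 12.2, 11 and 18.1 in T_3h. The T_3h values lay below CON, with T_3h_3 close to CON_3, and the log2 fold change was -1.11 (SE 0.39, adjusted p = 0.742), or -0.62 (SE 0.42) after scaling, where it did not pass. Lysosomal alpha-mannosidase, which trims mannose, had 19.9, 18.5 and 11.8 FPKM in CON, 14.1, 11.6 and 13.3 in T_1h, and 5.35, 2.75 and 10.9 in T_3h for MSTRG.13238. Its T_3h_3 value was just under the lowest CON value, and the log2 fold change was -1.40 (SE 0.48, adjusted p = 0.737), or -0.96 (SE 0.41) after scaling. In contrast, beta-glucuronidase, MSTRG.1711, had a log2 fold change of 0.04 (SE 0.33) at T_3h and stayed between 3.58 and 5.21 FPKM in all 9 libraries.

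Sulfatases, which take sulfate groups from glycosaminoglycans and sulfated lipids, were the largest class and were expressed at low levels, with 1 of 33 at a mean of 10 FPKM or more. At T_3h 4 of 33 passed as lower, with a median of -0.48, or -0.25 after scaling. By type, all 7 genes of the arylsulfatase B or J type had a log2 fold change below 0, with a median of -0.96, and 3 of them passed. The 8 genes of the N-sulphoglucosamine sulphohydrolase type, an enzyme of heparan sulfate breakdown, had a median of -0.04, 4 of 8 below 0 and 0 that passed. After scaling the 2 medians were -0.53 and 0.22, and the difference between the types was not tested.

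MSTRG.12493 has no description and belongs to the arylsulfatase B or J type by its KEGG entry. It had 5.7, 4.78 and 3.58 FPKM in CON, 3.75, 1.19 and 2.06 in T_1h, and 0.964, 0.853 and 1.63 in T_3h. T_3h lay below all of CON, while T_1h_1 was above the lowest CON value. The log2 fold change was -1.12 (SE 0.41, adjusted p = 1.0) at T_1h, where the fit uses T_1h_2 and T_1h_3, and -1.40 (SE 0.37, adjusted p = 0.651) at T_3h. Scaling left it past the thresholds at T_3h, at -1.07 (SE 0.36, adjusted p = 0.874), and short of the fold limit at T_1h, at -0.96. With all 9 libraries and the block its value at T_1h was -0.83 (SE 0.31), and it did not pass. MSTRG.28743, described as arylsulfatase J, had 4.42, 2.71 and 2.49 FPKM in CON, 2.23, 1.48 and 2.61 in T_1h, and 0.698, 0.683 and 0.974 in T_3h. Its 3 T_3h values were close to each other and below all others, with -1.21 (SE 0.37, adjusted p = 0.698) at T_3h and -0.92 (SE 0.37) after scaling. MSTRG.23376, also described as arylsulfatase J, had 4.58, 6.66 and 3.83 FPKM in CON, 2.69, 3.45 and 2.78 in T_1h, and 1.22, 1.73 and 2.8 in T_3h. Both warmed groups lay below CON, and the log2 fold change was -1.05 (SE 0.38, adjusted p = 0.755) at T_3h, or -0.67 (SE 0.36) after scaling. The fourth sulfatase that passed was MSTRG.46009, described as N-acetylgalactosamine-6-sulfatase-like, at -1.04 (SE 0.36, adjusted p = 0.74), or -0.71 (SE 0.31) after scaling, where it did not pass.

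The most abundant sulfatases did not pass. MSTRG.9891, described as N-sulphoglucosamine sulphohydrolase-like, had 14, 11.1 and 17.4 FPKM in CON, 10.9, 9.33 and 20.6 in T_1h, and 9.69, 4.33 and 22 in T_3h. T_3h ran from the lowest to the highest value of all libraries, and the log2 fold change was -0.45 (SE 0.57, adjusted p = 0.931). MSTRG.408, N-acetylglucosamine-6-sulfatase, was at -0.25 (SE 0.63, adjusted p = 0.979) and MSTRG.17599, arylsulfatase B-like, at -0.96 (SE 0.44, adjusted p = 0.814). With the block, MSTRG.28803, arylsulfatase A-like, passed as well, at -1.22 (SE 0.38, adjusted p = 0.274), against adjusted p = 0.818 without it.

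Of the 6 genes of lipid breakdown 2 passed as lower at T_3h, with a class median of -0.84, or -0.57 after scaling. Palmitoyl-protein thioesterase removes fatty acids from proteins that are being broken down. MSTRG.34192, named from its KEGG entry, had 29.8, 21.4 and 32.9 FPKM in CON, 20.3, 16.4 and 17.4 in T_1h, and 16.9, 6.04 and 13.6 in T_3h. Both warmed groups lay below CON, and the log2 fold change was -1.22 (SE 0.43, adjusted p = 0.746) at T_3h, or -0.74 (SE 0.35) after scaling, where it did not pass. The GM2 activator hands gangliosides to the enzyme that breaks them down. MSTRG.37977, also named from its KEGG entry, had 1.15, 4.5 and 9.03 FPKM in CON, 2.28, 2.73 and 4.18 in T_1h, and 0.433, 0.411 and 1.59 in T_3h. CON varied widely and CON_1 lay below T_3h_3, so the groups overlapped. Its log2 fold change was -1.50 (SE 0.59, adjusted p = 0.792) at T_3h and -1.19 (SE 0.47, adjusted p = 0.949) after scaling. Acid ceramidase, MSTRG.35274, was at -0.36 (SE 0.38) at T_3h. MSTRG.7984, with the KEGG entry of lysosomal acid lipase and the description gastric triacylglycerol lipase, passed with the block (adjusted p = 0.334) and not without it (adjusted p = 0.812), at a log2 fold change of -1.02. A second thioesterase, MSTRG.25734, shares the description of MSTRG.34192 and had 2.84, 2.22 and 8.42 FPKM in CON, 2.58, 1.05 and 6.22 in T_1h, and 2.03, 1.46 and 8.47 in T_3h. It followed the replicate number rather than the time, with number 3 highest in each group.

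Membrane proteins, which carry molecules across the lysosomal membrane or coat its inner face, kept the largest share of their CON sum at T_3h among the classes whose sums at T_3h are given above. At T_3h 1 of 7 passed as lower, with a class median of -0.53, or -0.03 after scaling. The gene that passed was LAPTM4A, a lysosomal transmembrane protein. MSTRG.4527 had 39, 43.9 and 34.7 FPKM in CON, 32.7, 30.5 and 29.4 in T_1h, and 14.9, 12.3 and 22.9 in T_3h. The 3 groups were fully apart and the libraries within a group were close, with -1.22 (SE 0.35, adjusted p = 0.686) at T_3h and -0.72 (SE 0.31, adjusted p = 0.96) after scaling, where the fold limit was missed. Niemann-Pick C1 exports cholesterol from the lysosome, and 2 genes carry its name. MSTRG.5741 had 54.2, 66.6 and 57.3 FPKM in CON, 60.0, 51.6 and 105 in T_1h, and 50.2, 38.8 and 98.2 in T_3h. At T_3h replicate 3 was above CON and the others below it, and the log2 fold change was -0.04 (SE 0.45) at T_3h, or 0.48 (SE 0.37) after scaling. MSTRG.22846 had overlapping groups as well, between 12.2 and 46.9 FPKM, and -0.53 (SE 0.47, adjusted p = 0.894) at T_3h. NRAMP 2, a metal ion transporter, was at -0.11 (SE 0.46) for MSTRG.4115.

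The V-type ATPase of the pathway list was read from 11 genes of 4 subunit types, and 1 passed as lower at T_3h, with a class median of -0.77, or -0.42 after scaling. The membrane ring through which protons pass is built of the proteolipid subunit, MSTRG.35780, the highest of the class. It had 51.7, 70.7 and 104 FPKM in CON, 61.5, 44.4 and 69.7 in T_1h, and 41.8, 27.8 and 63.6 in T_3h. The groups overlapped, and the log2 fold change was -0.77 (SE 0.44, adjusted p = 0.853). Subunit d links the ring to the central stalk of the pump. MSTRG.42114 had 15.6, 15.1 and 21.9 FPKM in CON, 10.3, 6.17 and 12.6 in T_1h, and 6.67, 3.53 and 12.6 in T_3h. All warmed values lay below CON, although T_1h_3 and T_3h_3 came close, and the log2 fold change was -1.23 (SE 0.49, adjusted p = 0.793) at T_3h, or -0.77 (SE 0.36) after scaling, where it did not pass. Subunit H, which regulates the pump, had 2.8, 4.18 and 15.2 FPKM in CON, 5.85, 4.68 and 11.2 in T_1h, and 7.52, 2.15 and 17.2 in T_3h for MSTRG.11752. Number 3 was far above the others in every group, and the log2 fold change was 0.20 (SE 0.77). In the Ballgown-type test alone this gene passed as higher, with a log2 fold change of 1.52.

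Of the 17 sorting and adaptor proteins 2 passed as lower at T_3h, with a median of -0.46, or -0.16 after scaling. The clathrin light chain, part of the coat of the vesicles, was the highest. MSTRG.31917 had 41.2, 65.5 and 92.6 FPKM in CON, 45.4, 34.3 and 54.6 in T_1h, and 28.7, 13 and 48.3 in T_3h. T_3h_3 lay above CON_1, and the gene missed the p limit without a block, at -1.23 (SE 0.54, adjusted p = 0.807), and passed with it (adjusted p = 0.28). The beta subunit of AP-1, the adaptor complex of the Golgi, had 21.4, 39.8 and 43.1 FPKM in CON, 17.4, 17.6 and 30.5 in T_1h, and 9.37, 6.68 and 24.9 in T_3h for MSTRG.29500. T_3h_3 lay above CON_1 and the other T_3h values were below all others, with -1.43 (SE 0.54, adjusted p = 0.769) at T_3h and -0.94 (SE 0.38) after scaling, where the fold limit was missed. AP-1 mu, MSTRG.4194, was at -0.80 (SE 0.52, adjusted p = 0.879). The mu subunit of AP-3, an adaptor complex that sends membrane proteins to lysosomes, passed in MSTRG.14947, at -1.05 (SE 0.46, adjusted p = 0.806), with values from 0.821 to 5.44 FPKM, and missed the fold limit after scaling, at -0.71 (SE 0.35). Of the receptors for mannose 6-phosphate, the cation-dependent one, MSTRG.29448, was at -0.10 (SE 0.59) and the cation-independent one, MSTRG.18910, at -0.82 (SE 0.41), and neither passed. Of the 2 other enzymes, ENTPD4, MSTRG.1523, was at -0.58 (SE 0.48) and did not pass. The acid phosphatase AJAP25017 was listed at 0 in all T_3h libraries and at no more than 0.347 FPKM in CON.

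**Figure D4:**
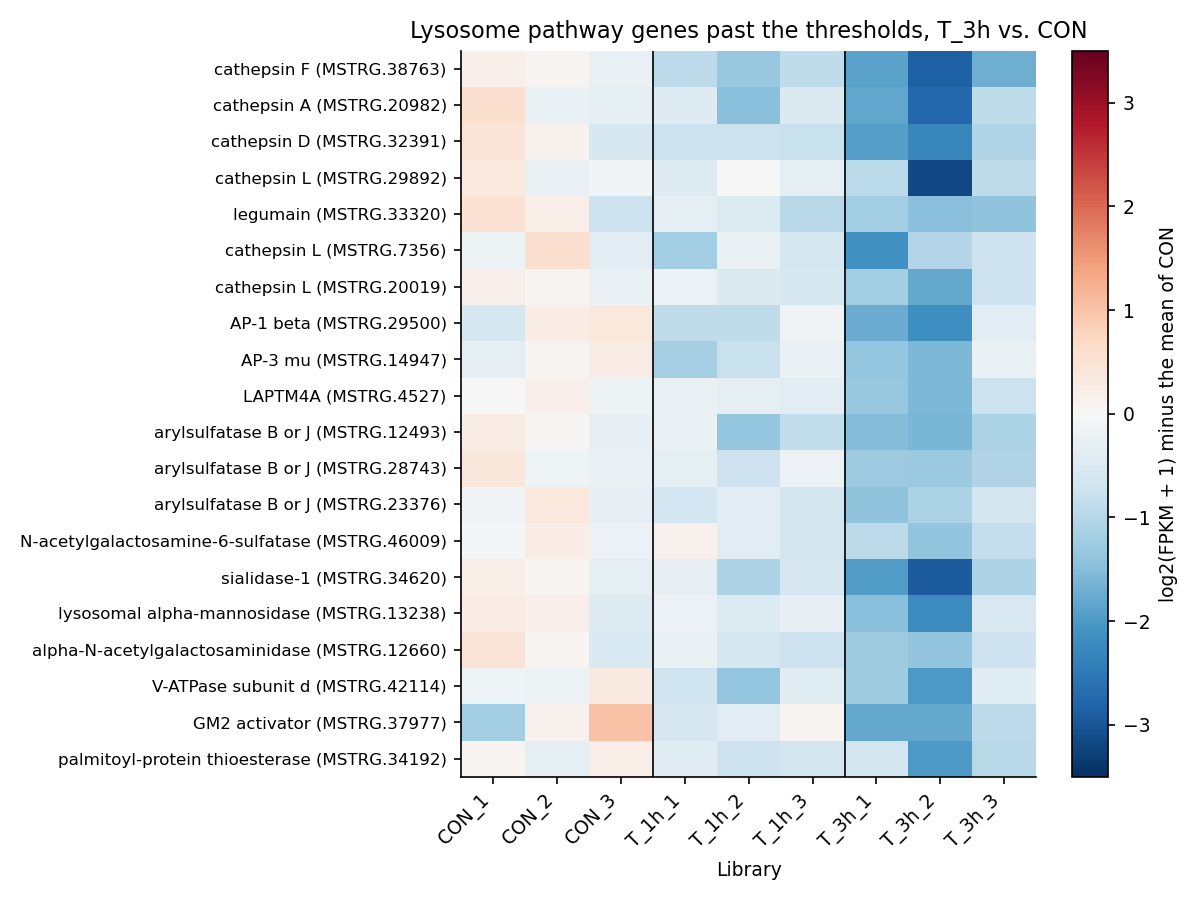
Rows are the 20 lysosome pathway genes that passed the thresholds in T_3h vs. CON and columns the 9 libraries, coloured by log2(FPKM + 1) minus the mean of the gene in CON. All 20 are blue in T_3h, most of them deepest in T_3h_2 and palest in T_3h_3.

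Not all of the 20 held equally under other treatments of the data. MSTRG.38763 (cathepsin F) and MSTRG.12493 (arylsulfatase B or J type) passed as lower at T_3h in 19 of 19 alternatives, and MSTRG.20982 (cathepsin A), MSTRG.32391 (cathepsin D) and MSTRG.34620 (sialidase-1) in 18. At the other end stood MSTRG.14947 (AP-3 mu) with 8 and MSTRG.42114 (V-type ATPase subunit d) with 9. Single libraries mattered for the count. The count over all genes moved with them. Without T_3h_2 9 of the 104 passed as lower, beside 1.92% of all genes, and without T_3h_3 35 did, beside 6.66%. Without CON_2 11 did and without T_3h_1 13 did, beside 2.21% of all genes each time. Within the replicate numbers the median difference of the 104 genes between T_3h and CON on the log2 scale was -0.55 for number 1, -1.13 for number 2 and -0.28 for number 3, so the direction held in each and the size did not.

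With the block of replicate numbers, 26 genes passed as lower, 20 of them the same as without it, beside 5.5% of all genes. In 1 further fit, chosen after seeing the data, with the block, all 9 libraries and genes of a mean of at least 1 FPKM, 12 of 79 lysosome genes, or 15.2%, had a Benjamini-Hochberg adjusted p under 0.05 in limma at T_3h, beside 6.35% of all genes in that fit. They included cathepsin F MSTRG.38763 (adjusted p = 0.0193), cathepsin L MSTRG.37729 (0.0253) and MSTRG.7356 (0.0438), legumain MSTRG.33320 (0.0353), cathepsin A MSTRG.20982 (0.0355), cathepsin D MSTRG.32391 (0.037) and sialidase-1 MSTRG.34620 (0.0317). After median-ratio scaling in the same fit 1 of the 79 was left, beside 1.84% of all genes, cathepsin F MSTRG.38763 at -1.69 (SE 0.27, adjusted p = 0.0396). In T_3h vs. T_1h the block moved the count of genes that passed from 0 to 2, both lower, beside 0.834% of all genes, cathepsin L MSTRG.29892 at -1.76 (SE 0.59, adjusted p = 1.00) and cathepsin F MSTRG.38763 at -1.14 (SE 0.41, adjusted p = 1.00).

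How much of the variation of a gene went with time at 37 °C, and how much with the replicate number, was described over all 9 libraries as shares of the sum of squares of log2(FPKM + 1). Among lysosome genes of a mean of at least 1 FPKM the median share was 41.0% for the group and 32.4% for the number, against 16.4% and 52.4% over all genes of that level. Highest for the group were cathepsin F MSTRG.38763 (87.1%), LAPTM4A MSTRG.4527 (84.5%), arylsulfatase J MSTRG.28743 (84.3%) and cathepsin D MSTRG.32391 (78%). Highest for the number were the thioesterase MSTRG.25734 (93.1%), NRAMP 2 MSTRG.4115 (92.9%) and the sialidase-1 genes MSTRG.32410 (91.7%) and MSTRG.15703 (91.5%). These shares are a description of the 9 libraries and carry no test.

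**Figure D5:**
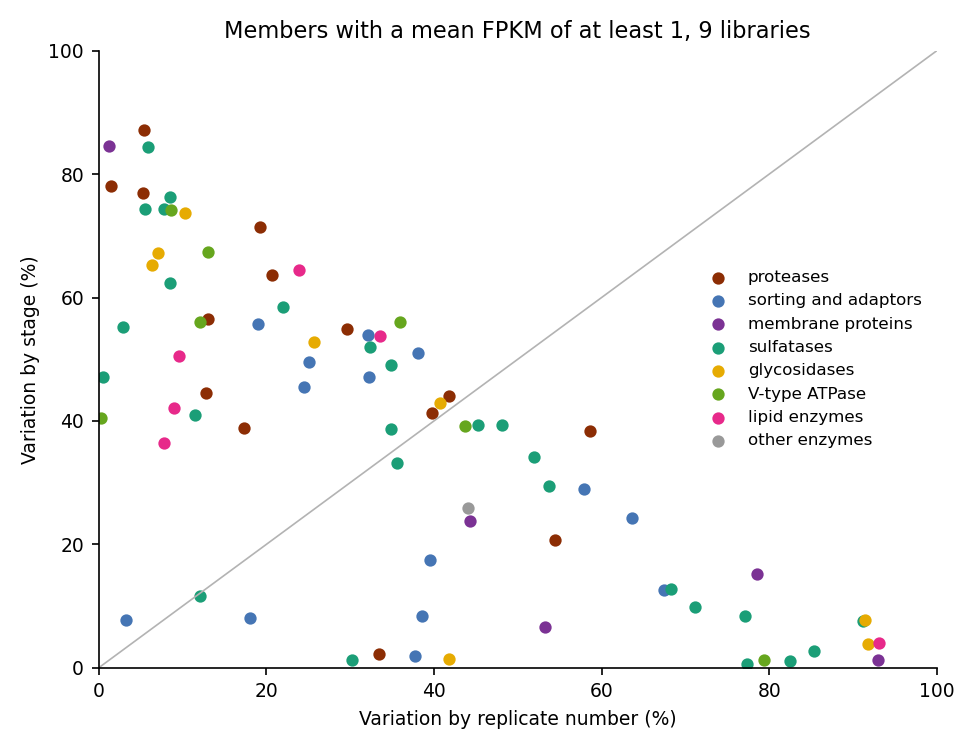
Each point is a lysosome pathway gene with a mean of at least 1 FPKM, placed by the percent of its variation over 9 libraries that went with the replicate number (horizontal) and with the group, CON, T_1h or T_3h (vertical). Points above the grey line, 45 of 79, varied more with the group.

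Genes that work with the lysosome but lie outside the pathway list were looked at as well. Cystatins inhibit cysteine cathepsins, and 3 genes carry their description, among them 2 described as leukocyte cysteine proteinase inhibitor. Summed over the 3 they averaged 1030.3 ± 449.5 FPKM in CON, 683 ± 296 in T_1h and 476 ± 65.7 in T_3h (SD, n = 3 each), with 0 of 3 past the thresholds and a median log2 fold change of -0.82 at T_3h. The cysteine cathepsins of the list summed to 1007 ± 138 FPKM in CON, 723 ± 156 in T_1h and 407 ± 143 in T_3h. Per library the ratio of these cathepsins to the cystatins was 1.87, 0.762 and 0.801 in CON, 0.821, 0.914 and 1.87 in T_1h, and 0.813, 0.669 and 1.03 in T_3h, so the groups overlapped. With the block 1 of the 3 passed as lower, MSTRG.34281, a leukocyte cysteine proteinase inhibitor, at -1.18 (SE 0.44, adjusted p = 0.318), beside 5.5% of all genes. Of 4 genes outside the list with cathepsin in their description 1 passed as lower at T_3h, beside 3.67% of all genes. It was MSTRG.38106, described as a cathepsin L-associated protein and not as a cathepsin, at -1.75 (SE 0.61, adjusted p = 0.742). Its values spread from 1.81 to 11.5 FPKM within CON. The cathepsin O genes MSTRG.24253 and MSTRG.40761 and the cathepsin F gene AJAP18197 did not pass. Of 5 further V-type ATPase genes, all of which KEGG lists under Phagosome, 1 passed as lower, subunit D MSTRG.12163, at -1.01 (SE 0.39, adjusted p = 0.79). After median-ratio scaling neither passed, at -1.54 for MSTRG.38106 and -0.66 for MSTRG.12163. Microphthalmia-associated transcription factor, whose family drives lysosomal genes in mammals, did not pass, at -0.44 (SE 0.50, adjusted p = 0.918) for MSTRG.36266.

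Medians of related pathways lay below 0 at T_3h as well. Of 90 Phagosome genes, 18 of them also lysosome genes, 13 passed as lower and 2 as higher, with a median of -0.41, beside 3.67% and 0.473% of all genes. Of 164 Endocytosis genes 19 passed as lower and 0 as higher, with a median of -0.52, of 41 Proteasome genes 5 and 0, with -0.75, and of 16 genes of autophagy regulation 2 and 0, with -0.50. After median-ratio scaling 4 Phagosome genes passed as lower and 5 as higher, so the balance turned, and 8 Endocytosis, 1 Proteasome and 1 autophagy gene passed as lower with 0 higher, beside 1.68% lower and 1.12% higher over all genes. The medians were then -0.09 for Phagosome, -0.22 for Endocytosis, -0.32 for Proteasome and -0.30 for autophagy regulation, against -0.33 for the lysosome genes. With the block, 36 Endocytosis genes passed as lower, beside 5.5% of all genes. Whether the lysosome genes differ from these lists was not tested.

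Markers of the tissues in the sample were read beside these falls. Dermis markers, 39 genes described as collagen alpha or fibrillin, summed to 3174 to 6108 FPKM in CON and 3463 to 7813 in T_3h, so connective tissue was present throughout. Coelomocytes are rich in lysosomes, and 30 genes described as complement component, scavenger receptor or toll-like receptor summed to 183 to 553 FPKM in CON, 358 to 846 in T_1h and 366 to 886 in T_3h. At T_3h 16 of their 29 tested genes had a log2 fold change below 0, with a median of -0.03. Of the 29, 2 passed as higher and 2 as lower, and with the block 2 and 4. Over all genes, for this and the lists below, 0.473% passed as higher and 3.67% as lower, and with the block 0.722% and 5.5%. Of 36 tested dermis genes 2 passed as higher and 3 as lower, and with the block 2 and 5. Muscle markers, 28 genes, summed to 76.0 to 129.8 FPKM in CON and 88.4 to 204 in T_3h, and nerve markers, 82 genes, to 26.7 to 63.0 and 14.6 to 40.3. Of 28 muscle genes 3 passed as higher and 1 as lower, and of 74 tested nerve genes 0 as higher and 3 as lower. Gut markers, 32 genes of digestive enzymes, summed to 67.6 to 107 FPKM in CON and 28.3 to 61.7 in T_3h, without overlap, although the viscera had been removed, and 1 of 31 tested passed as higher and 1 as lower. No marker list had a gene at 0 in all libraries. The paper reports genes for complement component C3, collagens, myosin heavy chain, troponin I and titin as higher after warming. Whether sums of such genes follow cell numbers or RNA per cell cannot be told apart in these libraries. The part of these lists in the fall of the lysosome genes was not tested.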

How the data were processed

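Per the labels and the study's methods, RNA of the body wall was sequenced in 9 libraries (CON, T_1h and T_3h, 3 each). The authors removed adaptors, primers and low-quality reads, aligned reads with HISAT to the *A. japonicus* genome, assembled and merged transcripts with StringTie, and deposited FPKM values per gene with descriptions and KEGG pathways. The submitters' processing notes name Bowtie 0.12.2, HISAT2 2.0 and StringTie 1.3.0 and the mouse build mm8, which is not the organism sequenced, so no coordinates are given. These values are corrected for transcript length and sequencing depth. Reads shared by near-identical genes may be split between them.

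The log2(FPKM + 1) values were fitted in limma 3.58.1 in R 4.3.3 (trend option, 1 model of 3 groups, 8 libraries without T_1h_1, genes above 0 in at least 2 of them, 50973 genes, Benjamini-Hochberg adjustment over all of them). All p-values are two-sided. An exact permutation test of 3 libraries against 3 cannot go under 0.1, so p-values rest on the model. The study's methods call the 3 libraries of a group biological replicates but do not say how many animals they came from. Nor do the sources say whether same-numbered libraries share an animal. The spread behind the p-values may therefore not be that between animals, and fits without the block ignore such sharing. Libraries with the same number in their titles moved together around the group means (correlation of deviations 0.595 to 0.722 over 9 pairs, mean 0.662, against a mean of -0.331 over 18 pairs of different numbers), so the replicate number was fitted as a block in an alternative.

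Named genes were the 3 highest of each class, every cathepsin with a mean of at least 1 FPKM, the 3 largest changes of each class past the thresholds, and genes past an adjusted p of 0.05. Other genes were picked after their values were seen. The gene group, its classes and lists were chosen with earlier results of these data known. Alternatives were a pseudocount of 0.1, a minimum mean of 1 FPKM, all 9 libraries, median-ratio scaling, a Ballgown-type test (an unmoderated F-test with a library covariate), the block on 8 libraries, on all 9 and on all 9 with scaling, and leaving out each of the 8 libraries, with 3 combined fits that were added after seeing the data, 19 in all. The procedures were also run on simulated data with a log2 change of 3 and without effects of the replicate number. That run does not show how they behave with such effects or with smaller changes. Python 3.11.15, numpy 2.4.6, pandas 2.3.3 and matplotlib 3.10.9 were used. None of the 104 genes matched the RefSeq gene table at hand, and sequences were not used here.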

Additional observations from a re-analysis of the deposited data

How the results depend on the processing

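The median log2 fold change of the 104 genes stayed below 0 in all alternatives and all 3 comparisons, while counts past the thresholds moved. At T_3h the count of 20 became 6 with median-ratio scaling, with or without a minimum mean of 1 FPKM, 5 with the Ballgown-type test and 8 with the replicate block, all 9 libraries and scaling, also with the minimum mean. At T_1h the count of 2 became 1 with all 9 libraries, a pseudocount of 0.1, the minimum mean, the Ballgown-type test or the replicate block, and 0 in each fit with median-ratio scaling. In T_3h vs. T_1h the count of 0 became 4 with all 9 libraries, 1 with scaling, the pseudocount, the minimum mean, the Ballgown-type test or the minimum mean with scaling, 2 with the replicate block, 6 with the block and all 9 libraries, also with the minimum mean, 2 when that block fit was scaled and 3 with the minimum mean and scaling. Shares over all genes moved too, and at T_3h those that passed as lower were 1.68% with scaling, 4.04% with scaling and the minimum mean, 0.84% in the Ballgown-type test, 2.35% with the block, all 9 libraries and scaling, and 5.84% with the minimum mean added. In T_3h vs. T_1h they were 0.599% with all 9 libraries, 0.834% with the replicate block, 1.2% with the block and all 9 libraries and 3.32% with the minimum mean added. Among the genes named by the rule, the replicate block on 8 libraries changed no other call than those given beside the genes. Without 1 library the count ran from 0 to 4 at T_1h (4 without CON_3), from 9 to 35 at T_3h and from 0 to 11 in T_3h vs. T_1h (11 without T_3h_3), while the share of all genes that passed as lower ran from 0.338% to 0.906%, from 1.92% to 6.66% and from 0.272% to 2.80%, and fits without T_1h_2 or T_1h_3 rest on 1 T_1h library, assumed to vary like the other groups. The cause of these shifts was not tested.

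A log2 fold change of a named gene changed sign in 98 of the alternative values, over 15 genes, and none of these values passed the thresholds. With median-ratio scaling, also with the minimum mean, the values were 0.064 for MSTRG.28063, 0.028 for MSTRG.29892, 0.019 for MSTRG.37977 and 0.17 for MSTRG.9891 at T_1h, and 0.13 for MSTRG.25734, 0.31 for MSTRG.28063, 0.082 for MSTRG.35274, 0.20 for MSTRG.408, 0.48 for MSTRG.5741 and 0.012 for MSTRG.9891 at T_3h. With the replicate block, all 9 libraries and scaling, also with the minimum mean, they were 0.046 for MSTRG.1523, 0.28 for MSTRG.28063, 0.058 for MSTRG.32506 and 0.061 for MSTRG.9891 at T_1h, and 0.14 for MSTRG.25734, 0.31 for MSTRG.28063, 0.085 for MSTRG.35274, 0.21 for MSTRG.408, 0.48 for MSTRG.5741 and 0.014 for MSTRG.9891 at T_3h. The Ballgown-type test gave 0.061 for MSTRG.1523, 0.17 for MSTRG.28063, 0.40 for MSTRG.37977, 0.072 for MSTRG.7358 and 0.081 for MSTRG.9891 at T_1h, and 0.67 for MSTRG.25734, 0.42 for MSTRG.28063, 0.56 for MSTRG.408, 0.41 for MSTRG.5741 and 0.25 for MSTRG.9891 at T_3h. The replicate block gave -0.051 for MSTRG.22846, 0.070 for MSTRG.28063, 0.10 for MSTRG.29892, -0.031 for MSTRG.35274 and -0.16 for MSTRG.408 at T_1h. All 9 libraries, alone, with the block or with the block and the minimum mean, gave 0.11 for MSTRG.28063 and -0.033 for MSTRG.408 at T_1h.

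Without 1 library, the values that changed sign ran at T_1h from -0.27 to 0.91 for MSTRG.11752, from -0.81 to 0.50 for MSTRG.1523, from -1.25 to 0.57 for MSTRG.25734, from -0.39 to 0.17 for MSTRG.28063, from -0.35 to 0.016 for MSTRG.29892, from -0.37 to 0.026 for MSTRG.32506, from -0.37 to 0.53 for MSTRG.35274, from -0.76 to 0.35 for MSTRG.37977, from -0.70 to 0.97 for MSTRG.408, from -0.66 to 0.14 for MSTRG.4194, from -0.19 to 0.82 for MSTRG.5741, from -0.82 to 0.096 for MSTRG.7358, from -0.89 to 0.087 for MSTRG.7502 and from -0.54 to 0.53 for MSTRG.9891. At T_3h they ran from -0.40 to 0.86 for MSTRG.11752, from -0.84 to 0.23 for MSTRG.25734, from -0.76 to 0.41 for MSTRG.28063, from -0.81 to 0.049 for MSTRG.408, from -0.41 to 0.24 for MSTRG.5741 and from -0.99 to 0.066 for MSTRG.9891.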
